A study of Homo sapiens with 9 samples.

Results

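Interferon-stimulated genes are the genes whose transcription rises when a cell receives interferon. This account follows 44 of them, a list of established antiviral effectors and regulators chosen by gene symbol, among the 63677 genes counted in 9 RNA sequencing libraries, and all 44 matched 1 gene identifier each. The libraries came from SW480, a cell line from a human colorectal adenocarcinoma, and from derivatives of SW480 made to express BASP1, a signaling protein and transcriptional corepressor whose level in the parental cells is low. The comparisons ask how the transcriptome of SW480 changes with BASP1. Each line had 3 libraries.

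SW480 was the unmodified parental line. SW480-B carried the BASP1 coding sequence in the plasmid pcDNA3, driven by a cytomegalovirus promoter; it was introduced by nucleofection, and cells were selected with geneticin and grown from a single cell. SW480-gRNA-B-all, here Bsg, had its own BASP1 gene switched on by CRISPR activation, in which a dCas9-VP64 fusion and an MS2-P65-HSF1 fusion are brought to the promoter by guide RNAs. These parts entered the cells by successive lentiviral transductions, with hygromycin and puromycin selection and cloning of cells positive for the GFP marker on dCas9-VP64. The labels call the parental libraries wild type and name no vector, virus, drug selection or cloning for them, so effects of those steps and of BASP1 cannot be told apart in these comparisons. The labels give all libraries 1 batch and do not say whether replicates were separate cultures, so p-values measure the spread between these libraries, which may be technical.

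Type I interferons bind the receptor made of IFNAR1 and IFNAR2, and type III interferons bind IFNLR1 with IL10RB. The kinases JAK1 and TYK2 then activate transcription factors, IRF9 and STAT2 among them, that bind the interferon-stimulated response element, or ISRE, in the promoters of target genes. The products block viral entry, degrade or sense viral RNA, or tune the pathway itself, and epithelial cells of the gut respond strongly to type III interferon.

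The promoter stretches of 5 members are shown because they carry the ISRE core and because their genes behaved differently in these lines: RTP4 was among the members called higher, HERC5 was called lower, and ISG15, IFIT1 and IFI6 were called in no comparison. They were chosen after the values were seen. Capitals mark each match to the ISRE core GAAANNGAA, where N is any base; a match on the other strand shows as its reverse complement, and neighbouring matches may overlap. The sequences are those of RefSeq on GRCh38.p14, written 5′ to 3′ on the strand of the gene, and each had 1 exact match on its chromosome in GRCh37, the build of the count files.
RTP4: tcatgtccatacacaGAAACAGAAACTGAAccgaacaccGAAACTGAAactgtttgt
HERC5: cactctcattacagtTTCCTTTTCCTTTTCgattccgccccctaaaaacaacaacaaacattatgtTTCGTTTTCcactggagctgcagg
ISG15: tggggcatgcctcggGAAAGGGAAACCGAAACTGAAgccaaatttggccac
IFIT1: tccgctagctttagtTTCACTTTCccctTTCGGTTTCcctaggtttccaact
IFI6: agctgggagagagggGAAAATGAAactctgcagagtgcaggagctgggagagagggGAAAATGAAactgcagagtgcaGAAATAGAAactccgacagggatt

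On GRCh37 the RTP4 stretch lies at chr3:187086116-187086172 on the plus strand and the HERC5 stretch at chr4:89378131-89378220 on the plus strand, both upstream of their gene and in no annotated gene. The ISG15 stretch lies at chr1:948749-948799 on the plus strand, in an intron of ISG15 as annotated there. The IFIT1 stretch lies at chr10:91152250-91152301 on the plus strand, in an intron of LIPA, which is read from the other strand, and the IFI6 stretch lies at chr1:27998773-27998874 on the minus strand, in an intron of ENSG00000225886, also on the other strand. Promoter sequences of 300 bases, from 250 before to 50 after the start, were given for 36 of the 44 members. The ISRE core occurred on either strand in 24 of these 36 (66.7%) and in 8.11% of all 35116 promoters of that length. The core of the gamma-activated site, TTCNNNGAA, occurred in 11 of the 36 (30.6%) and in 7.66% of all promoters. Of the members called higher or lower below, RTP4 and HERC5 held 3 matches to the ISRE core each; OAS1 held none but had 1 match to the gamma-activated site, and SP110 held neither. OASL, IRF7, MX2, USP18 and OAS2 are named only.

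Library depth was even, between 25238831 and 29355669 counts on genes. Levels are CPM, counts relative to library size scaled by trimmed mean of M-values over the 9 libraries, and 3 counts correspond to between 0.0983 and 0.115 CPM, which covers counting error only. BASP1 (ENSG00000176788) checked the labels. It stood at 11.3, 8.09 and 0.688 CPM in parental SW480, at 266, 270 and 255 CPM in SW480-B and at 167, 308 and 305 CPM in Bsg. The difference from SW480 was 5.29 ± 0.85 (log2, SE) in SW480-B, with an adjusted p of 0.0293, and 5.21 ± 0.92 in Bsg, with an adjusted p of 0.0250; SW480 replicate 3 held much less BASP1 than the other parental libraries. Both calls were kept without SW480 replicate 1 or 3 and lost without any other single library, with adjusted p-values of up to 0.116 for Bsg and 0.201 for SW480-B. Both were also lost with no filter on low counts, and that in Bsg with Bsg replicates 2 and 3 summed.

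Keratins of epithelial cells were abundant in each line. KRT8, a keratin of simple epithelium, was the most abundant of the 12 markers of colon epithelium, at between 3542 and 6245 CPM, whereas the summed level of 9 leukocyte markers was between 1.15 and 6.15 CPM, that of 3 endothelial markers between 0.819 and 4.40 CPM and that of 7 fibroblast markers between 2.95 and 11.1 CPM. Of the fibroblast markers, LUM, which encodes a matrix proteoglycan, was at 6.16, 2.12 and 0.978 CPM in SW480 and had 1 count in all in the other lines. LUM was called lower in both, but passed the low-count filter through SW480 alone, where it is high. The collagen gene COL1A1 rose by 1.21 ± 0.25 (log2, adjusted p = 0.0362) in Bsg. MS4A1, a B cell marker, had 0 counts in all libraries. Of the 12 colon markers 5 were too low to test, among them KRT20, and all 7 tested had negative values in Bsg against SW480 (median -0.83), where 4 of 7 were positive in SW480-B. Among them VIL1, which encodes the microvillus protein villin, fell by 4.44 on the log2 scale in Bsg and by 2.94 in SW480-B, and CDX2, a transcription factor of the intestinal epithelium, fell by 3.28 in Bsg. CDX2 did not fall in SW480-B, where its log2 fold change was 0.87 ± 0.22 (adjusted p = 0.118) and all libraries lay above SW480. With a library left out, the calls in Bsg were kept in 3 of 6 fits for VIL1 and CDX2 and in 2 for COL1A1, and that of VIL1 in SW480-B in 2. The calls of VIL1, CDX2 and COL1A1 in Bsg were lost with Bsg replicates 2 and 3 summed. That of COL1A1 was also lost in a fit of all 9 libraries and with the replicate numbers as a block. In bulk RNA, fewer cells of a kind and less RNA per cell cannot be told apart.

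The members were spread over a wide range of expression. Of the 44, 11 had a mean under 1 CPM and 17 a mean over 10 CPM. IFI44 and IFI44L, neighbouring genes on chromosome 1 that are strongly inducible in many cell types, had 0 counts in all 9 libraries and so lay under the limit of 3 counts. RSAD2, XAF1, SAMD9L and TRIM22 had so few counts that they passed the low-count filter in no comparison, which left 38 members that could be tested. XAF1 had 9, 5 and 3 counts in all in SW480, SW480-B and Bsg, and RSAD2, an enzyme that makes a chain-terminating nucleotide, had 8, 4 and 10.

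Per kilobase of annotated exon, the membrane proteins led. IFITM2 reached 114 CPM per kilobase and IFITM3 48.5 over the 9 libraries; both keep viruses from fusing with the membrane, and their sequences are so alike that the sharing of reads between them is uncertain. ISG15, a ubiquitin-like modifier, came next with 33.3 CPM per kilobase. Over the 9 libraries together the highest member of each other group was IFI6 among the IFI genes with 10.4, the ubiquitin ligase DTX3L with 9.93, IRF7 among the transcription factors with 8.03, the RNA sensor IFIH1 with 3.86, OAS3 with 2.58, IFIT5 with 1.78, SAMD9 with 1.52 and MX1 with 0.704 CPM per kilobase. The order differed by line: IFI35 led IFI6 in Bsg (15.9 against 10.9), MX2 led MX1 in SW480 (0.468 against 0.446) and ISG20 led SAMD9 in SW480-B (1.16 against 1.06). The length used joins all annotated exons of a gene, 12265 bases for IRF1 and 2612 for IRF7, so the order depends on the annotation. By CPM alone, IRF1 or STAT2 was the most abundant of the transcription factors in every library. IFI6 shares 23.1% of its exon length with other annotated genes, taken on either strand. The share was 23.9% for IRF9, 22.9% for IRF1, 19.4% for SP110 and 16.3% for IFITM3. Where the shared bases lie on the same strand, the counts are less certain.

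**Figure D1:**
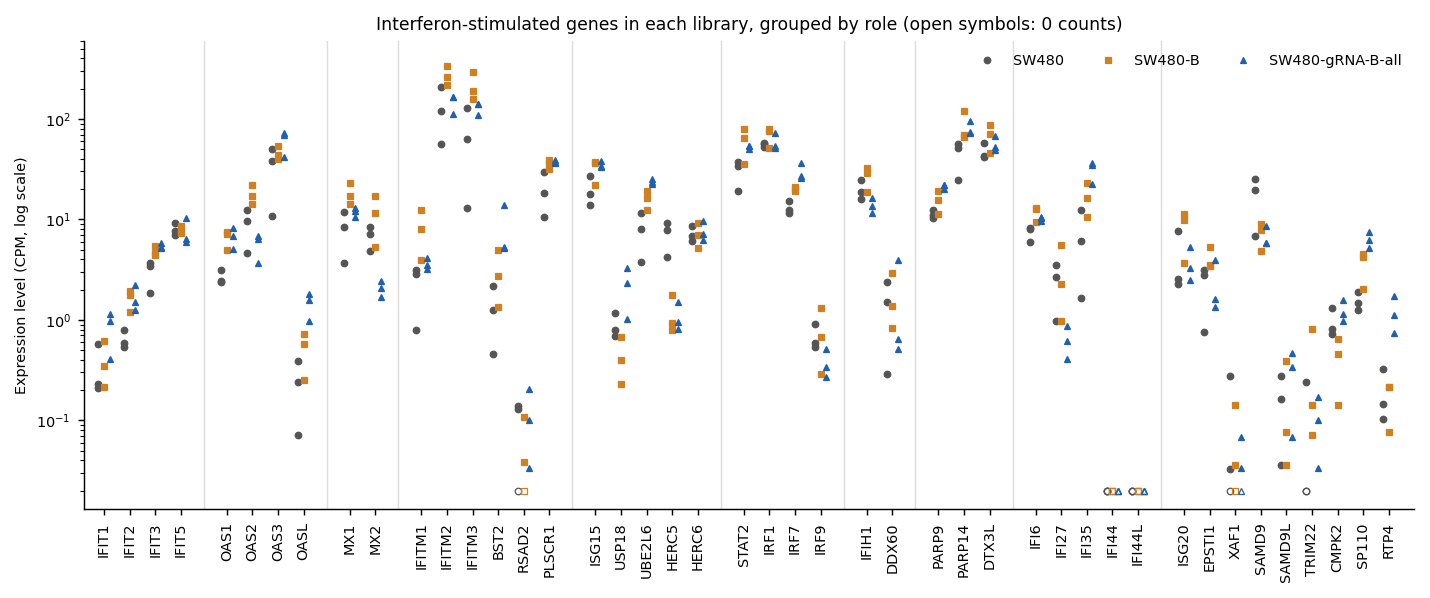
Level of each of the 44 interferon-stimulated genes in each library (CPM, log scale), grouped by role from left to right; open symbols on the bottom line are libraries with 0 counts. IFITM2 lies highest in every library but SW480 replicate 1, where IRF1 does, IFI44 and IFI44L are at 0 counts throughout, and SW480 replicate 1 gives the lowest point of many members, such as IFITM3 at 13.0 CPM.

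The summed level of the 44 members was 393, 623 and 783 CPM in parental SW480, 1134, 1265 and 928 CPM in SW480-B and 858, 893 and 888 CPM in Bsg. Every SW480 library thus lay below every library of the other lines. Without IFITM2 and IFITM3 the sums were 324, 440 and 448 CPM in SW480, 724, 629 and 510 CPM in SW480-B, and 637, 587 and 583 CPM in Bsg, in the same order of SW480 below the rest.

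SW480 replicate 1 stood apart. It held the lowest value of the 9 libraries for 17 of the 38 members, and the median member lay 0.64 below its 9-library mean on the log2 scale (-0.64), against -0.33 and -0.20 in SW480 replicates 2 and 3. The median of all genes deviated by -0.01 in the same library. OAS3 was at 10.9 CPM in replicate 1 and at 38.1 and 50.2 CPM in the other SW480 libraries, and IFI35 at 1.64, 6.08 and 12.5 CPM. SW480 replicate 1 and SW480-B replicate 1 had more intronic bases, 5.57% and 7.27%, and more reads in no gene, 8.16% and 9.93%, than any other library; the part of this in the members' levels was not tested. Within SW480, 14 of 38 members differed more than 2-fold between replicates 1 and 2 and 17 between replicates 1 and 3. Among all genes the shares were 20.5% and 30.8%. In Bsg none of the 38 differed more than 2-fold between replicates 2 and 3, where 2.08% of all genes did, against between 10.9% and 30.8% for the other replicate pairs; the counts of that pair still differed beyond sampling noise, with a mean chi-square of 3.34 per gene, so they were kept as separate libraries and also tried as 1.

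**Figure D2:**
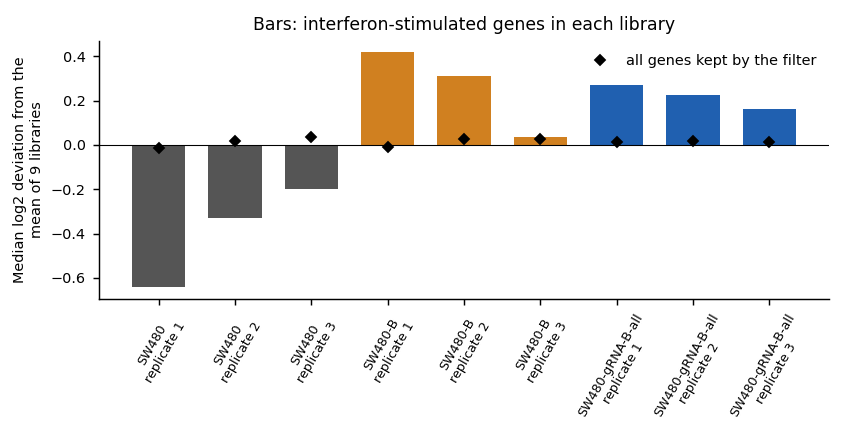
Median deviation of the 38 tested members from their mean over the 9 libraries in each library (bars, log2) and the same median over all genes kept by the low-count filter (diamonds). The bars run from -0.64 in SW480 replicate 1 to 0.42 in SW480-B replicate 1, and the diamonds stay within 0.04 of 0.

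In Bsg against SW480, 5 of the 38 members tested were higher and 2 were lower (edgeR quasi-likelihood test, Benjamini-Hochberg adjusted p under 0.05 over all genes and a change above 2-fold). Among all 16100 genes tested, 1.89% were called higher and 4.66% lower. OAS1, OASL, IRF7, SP110 and RTP4 rose, and MX2 and HERC5 fell. The median log2 fold change of the members was 0.71, beside -0.05 for all genes, and 29 of the 38 had a positive value. All 3 libraries lay above all SW480 libraries for 17 members (44.7%) and below for 4 (10.5%), where the shares among all genes were 19.1% above and 18.6% below. OASL, RTP4, IFIT1 and DDX60 passed the low-count filter through the Bsg libraries and IRF9, 1 of the 4 below, through SW480, so their presence among the tested genes is not independent of their direction.

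These 7 calls rest on few libraries. None of the 7 was kept without SW480 replicate 2, where the adjusted p-values ran from 0.0723 to 0.163, nor without Bsg replicate 1 (0.0555 to 0.125), replicate 2 (0.0996 to 0.202) or replicate 3 (0.0972 to 0.180), nor with replicates 2 and 3 summed into 1 library (0.0937 to 0.183). All 7 kept their direction each time. The calls over all genes went the same way, from 304 higher and 751 lower to 1 higher and 7 lower without SW480 replicate 2. They rose to 961 higher and 1698 lower without SW480 replicate 3. Without SW480 replicate 1, the library with the lowest levels, 6 of the 7 member calls were kept and the median of the members was 0.51.

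The OAS family makes 2′-5′-linked oligoadenylates that activate the RNA-degrading enzyme RNase L. OAS1 (ENSG00000089127, chr12:113343661-113371024) was at 2.43, 3.12 and 2.39 CPM in SW480, at 7.57, 7.10 and 5.00 CPM in SW480-B and at 5.04, 8.17 and 6.82 CPM in Bsg. Every library of both BASP1 lines lay above every SW480 library. The log2 fold change was 1.29 ± 0.30 in Bsg (adjusted p = 0.0478) and 1.31 ± 0.36 in SW480-B, where the adjusted p of 0.148 missed the threshold.

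OASL (ENSG00000135114, chr12:121455566-121477049), a relative without that enzyme activity which enhances RNA sensing, was scarce, at 0.393, 0.243 and 0.0724 CPM in SW480, 0.730, 0.251 and 0.575 CPM in SW480-B and 1.83, 0.983 and 1.59 CPM in Bsg. It was 2.55 ± 0.60 higher (log2) in Bsg (adjusted p = 0.0494), on 21 counts in all in SW480 and 130 in Bsg. OAS3 overlapped between the lines, and its log2 fold change in Bsg was 0.85 ± 0.50 (adjusted p = 0.303).

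OAS2 (ENSG00000111335, chr12:113416200-113449528) lies next to OAS1 and OAS3 on chromosome 12. Its level was 4.65, 9.72 and 12.5 CPM in SW480, 17.3, 22.2 and 14.2 CPM in SW480-B and 3.72, 6.78 and 6.34 CPM in Bsg. The SW480-B libraries all lay above SW480, as for OAS1, and the Bsg libraries overlapped with SW480. Between the BASP1 lines OAS2 fell by 1.68 on the log2 scale in Bsg (SE 0.29, adjusted p = 0.0121), and the call was lost without SW480-B replicate 2 (adjusted p = 0.0559).

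IRF7 (ENSG00000185507, chr11:612553-615983) is the transcription factor that amplifies interferon production. It was at 11.5, 12.5 and 15.2 CPM in SW480, at 20.2, 20.9 and 19.0 CPM in SW480-B and at 36.3, 25.7 and 27.3 CPM in Bsg, so the libraries of the 3 lines did not overlap. The log2 fold change was 1.15 ± 0.22 in Bsg (adjusted p = 0.0290) and 0.62 ± 0.24 in SW480-B (adjusted p = 0.268). STAT2, which acts together with IRF9, had log2 fold changes of 0.77 ± 0.24 and 1.01 ± 0.35 with adjusted p-values of 0.0953 and 0.226. IRF9, which binds DNA in that complex, was low, between 0.271 and 1.31 CPM in all libraries.

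SP110 (ENSG00000135899, chr2:231029902-231090444), a nuclear body protein, was at 1.25, 1.91 and 1.49 CPM in SW480, at 4.54, 4.26 and 2.01 CPM in SW480-B and at 5.21, 7.49 and 6.21 CPM in Bsg. The rise in Bsg was 1.98 ± 0.31 (log2, adjusted p = 0.0182). In SW480-B the value was 1.23 ± 0.46 with an adjusted p of 0.250, although its libraries also lay above those of SW480.

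RTP4 (ENSG00000136514, chr3:187086173-187089864), a chaperone of membrane receptors whose promoter is printed above, was near the limit of detection in SW480, at 0.328, 0.104 and 0.145 CPM, and in SW480-B, at 0.0769, 0.215 and 0.216 CPM. It reached 1.73, 1.12 and 0.746 CPM in Bsg. RTP4 rose by 2.55 ± 0.58 (log2, adjusted p = 0.0455) against SW480 and by 2.78 ± 0.54 (adjusted p = 0.0186) against SW480-B, and was not tested in SW480-B against SW480.

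MX GTPases form rings that trap viral nucleoproteins. MX2 (ENSG00000183486, chr21:42733926-42781320) was at 8.45, 7.12 and 4.89 CPM in SW480, at 17.1, 11.5 and 5.36 CPM in SW480-B and at 2.44, 2.07 and 1.70 CPM in Bsg. It fell by 1.77 on the log2 scale against SW480 (SE 0.34, adjusted p = 0.0299), and the log2 fold change against SW480-B was -2.46 (SE 0.44, adjusted p = 0.0130). The neighbouring MX1 differed from it against SW480, with 0.54 ± 0.40 (adjusted p = 0.404), but also had a negative value against SW480-B, -0.61 ± 0.23 (adjusted p = 0.153).

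The ISG15 system attaches ISG15 to other proteins. HERC5 (ENSG00000138646, chr4:89378270-89427314), the ligase of that reaction, was at 7.77, 9.20 and 4.27 CPM in SW480, at 1.77, 0.788 and 0.935 CPM in SW480-B and at 1.52, 0.949 and 0.814 CPM in Bsg. Both BASP1 lines lay below every SW480 library. HERC5 fell by 2.73 on the log2 scale in Bsg (SE 0.44, adjusted p = 0.0197). In SW480-B the log2 fold change was -2.59 ± 0.50 with an adjusted p of 0.0532, and with the replicate numbers as a block the adjusted p was 0.0410, which passed. The adjacent gene HERC6 ranged from 5.19 to 9.64 CPM with all lines overlapping.

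UBE2L6, ISG15 and USP18, of the same system, had positive values against SW480 in Bsg, opposite to HERC5. UBE2L6, the conjugating enzyme, had 3.74, 11.5 and 8.08 CPM in SW480 and between 22.6 and 25.0 CPM in Bsg, a log2 fold change of 1.58 ± 0.38 whose adjusted p of 0.0508 just missed the threshold. ISG15 itself had a value of 0.80 ± 0.26 (adjusted p = 0.106). USP18 (ENSG00000184979, chr22:18632885-18660164), which removes ISG15 and dampens the receptor, was at 1.18, 0.694 and 0.797 CPM in SW480, at 0.231, 0.681 and 0.395 CPM in SW480-B and at 1.02, 3.25 and 2.31 CPM in Bsg. USP18 was 2.31 ± 0.56 higher (log2) in Bsg than in SW480-B (adjusted p = 0.0392), with each library above each SW480-B library, but overlapped with SW480. The call was kept in 1 of 6 fits with a library left out and lost with Bsg replicates 2 and 3 summed.

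**Figure D3:**
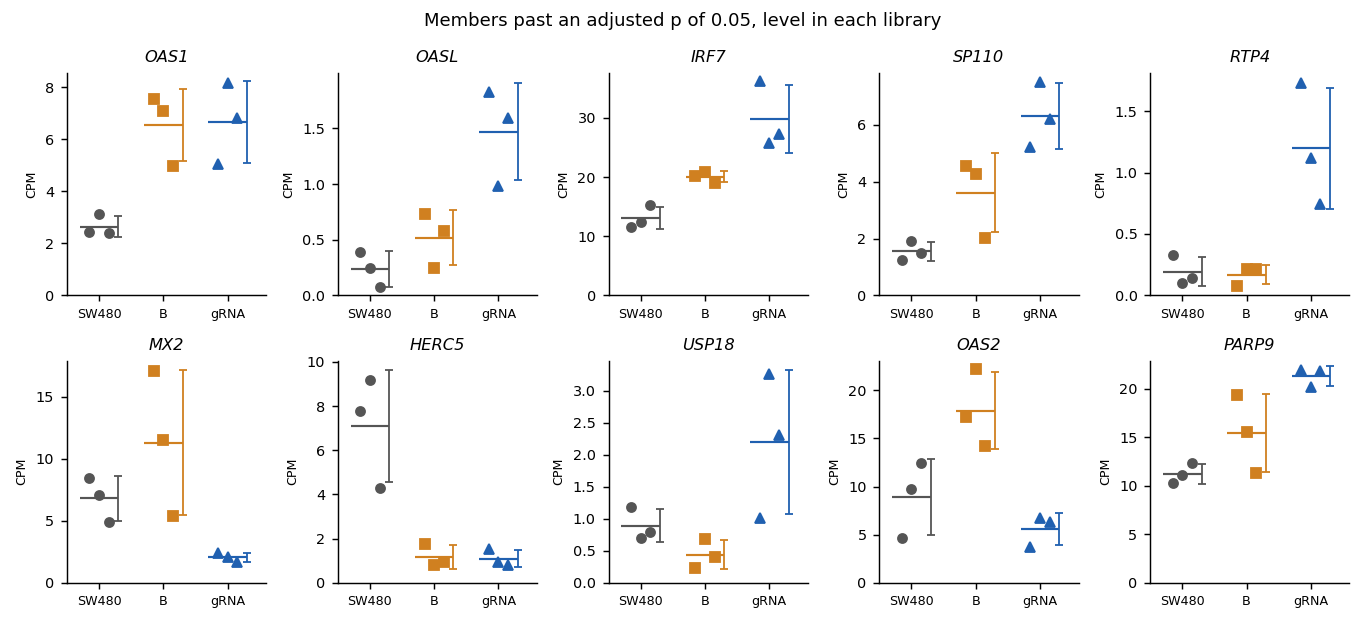
Level in each library (CPM, linear axis from 0) of the 9 members called in any comparison and of PARP9, which passed the adjusted p but not 2-fold; B is SW480-B, gRNA is Bsg, horizontal lines are means and bars are the SD of 3 libraries. HERC5 is low in both BASP1 lines, MX2 is low in Bsg at between 1.70 and 2.44 CPM, and RTP4 is high there alone among the 3 lines shown.

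Several members came close to a call, and those named here were chosen after the values were seen. PARP9, an ADP-ribosyltransferase that works with DTX3L, passed the adjusted p (0.0345) in Bsg but stayed under 2-fold (log2 0.88 ± 0.18). BST2, which tethers budding virus to the cell surface, had a log2 fold change of 2.62 ± 0.66 in that comparison, close to those of OASL and RTP4, with an adjusted p of 0.0567; its levels were 0.459, 2.15 and 1.27 CPM in SW480 and 13.8, 5.15 and 5.26 CPM in Bsg. IFI35 had a value of 2.18 ± 0.64 (adjusted p = 0.0811). IFIT2, which binds viral RNA, had 1.32 ± 0.40 (adjusted p = 0.0839), and IFI27 had -1.95 ± 0.58 (adjusted p = 0.0824). SAMD9 had -1.40 ± 0.49 (adjusted p = 0.120); SW480 replicate 3 with 6.77 CPM overlapped with Bsg, and replicates 1 and 2 held 25.0 and 19.8 CPM.

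SW480-B was compared with the same SW480 libraries. None of the 37 members tested was called by edgeR, where 0.0931% of 16106 genes were called higher and 1.25% lower. The unadjusted p of edgeR was under 0.05 for 15 of the 37, beside 2549 of all 16106 genes. DESeq2 called IFITM1 and OAS1 higher and HERC5 lower, beside 365 higher and 730 lower of 30000 genes. With the replicate numbers as a block, 1 member, HERC5, was called lower, beside 56 higher and 263 lower of all 16106 genes. The calls over all genes also rest on single libraries, from 15 higher and 201 lower to 0 and 0 without SW480-B replicate 1 or 2 and to 226 and 695 without SW480 replicate 3. The median log2 fold change was 0.72, beside 0.00 (-0.00389) for all genes, and 31 of the 37 values were positive. The SW480-B libraries all lay above SW480 for 15 members (40.5%) and below for 3 (8.11%), where the shares among all genes were 11.7% and 10.8%. The members below were HERC5, USP18 and CMPK2, and USP18 and CMPK2 passed the low-count filter through SW480 alone, where they are higher.

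The 2 largest positive values in SW480-B belonged to IFITM1 and IFITM3. IFITM1 was at 0.786, 3.16 and 2.90 CPM in SW480 and at 12.5, 8.10 and 3.95 CPM in SW480-B, a log2 fold change of 1.87 ± 0.61 (adjusted p = 0.210). IFITM3 was at 13.0, 63.8 and 128 CPM in SW480 and at 190, 296 and 158 CPM in SW480-B, a log2 fold change of 1.67 ± 0.66 (adjusted p = 0.277). IFITM2 had 1.11 ± 0.43 (adjusted p = 0.261). All 3 rest on parental libraries that were far apart from each other. MX1 had 1.19 ± 0.43 (adjusted p = 0.238).

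**Figure D4:**
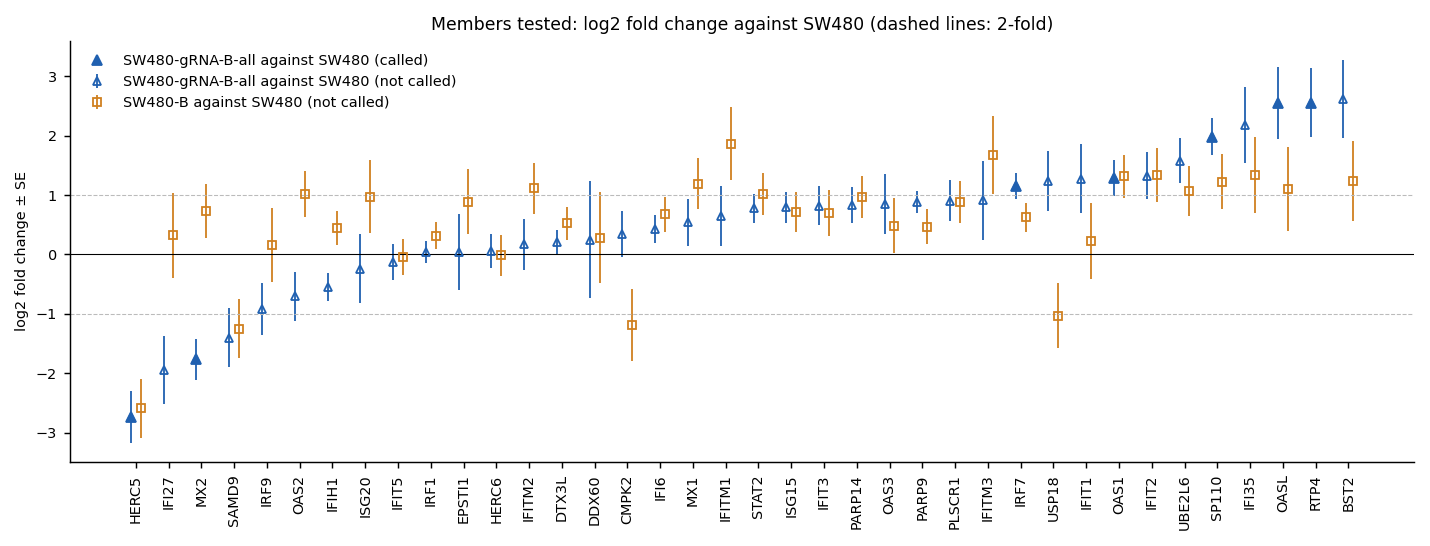
Log2 fold change with its SE of the tested members in Bsg (triangles) and SW480-B (squares) against the same SW480 libraries, ordered by the first; filled symbols are called, dashed lines mark 2-fold. Most members lie above 0 in both, and HERC5 lies lowest in both at -2.73 and -2.59. Several members, MX2, OAS2 and USP18 among them, lie on opposite sides of 0 in Bsg and SW480-B.

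Bsg against SW480-B compares the activated gene with the ectopic one at similar BASP1 levels. Of 38 members tested, RTP4 and USP18 were called higher and MX2 and OAS2 lower, where 2.31% of 15846 genes were called higher and 4.37% lower. The calls over all genes were 366 higher and 693 lower. They fell to 135 and 285 without Bsg replicate 3 and rose to 607 and 941 without SW480-B replicate 3. The median log2 fold change of the members was -0.03, beside 0.00 (-0.00444) for all genes, with 18 values above 0 and 20 below. All 3 libraries lay above SW480-B for 9 members (23.7%) and below for 7 (18.4%), with shares among all genes of 14.9% and 15.5%. None of the 4 calls was kept without SW480-B replicate 2 (adjusted p 0.0559 to 0.0745), and 1 was kept without Bsg replicate 2. RTP4, USP18, OASL and CMPK2, 4 of the 9 members above, passed the low-count filter through the Bsg libraries, so here too their being tested is not independent of their direction. IFITM2 was lower by less than 2-fold (log2 -0.90 ± 0.22, adjusted p = 0.0432), and IFIH1 had -0.96 ± 0.26 (adjusted p = 0.0553).

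The interferon genes themselves were almost silent. Of 21 ligand genes none passed the low-count filter, and IFNB1 and IFNG had 0 counts in all 9 libraries, so any level lay under 3 counts per library. IFNL1, a type III interferon, had 0 counts in each SW480 library, 0, 1 and 2 counts in SW480-B and 13, 5 and 2 counts in Bsg, too few to test. IFNE, the epithelial type I interferon, stayed between 0.0360 and 0.372 CPM.

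The receptor chains and their kinases were present in all lines. IFNAR1 was at 87.2, 130 and 128 CPM in SW480 and at 80.8, 84.5 and 78.5 CPM in Bsg, a log2 fold change of -0.54 ± 0.18 (adjusted p = 0.102), and IFNAR2 lay between 12.9 and 26.4 CPM in all lines. IFNLR1, the specific chain of the type III receptor, was at 5.41, 6.74 and 8.58 CPM in SW480, at 15.8, 12.04 and 12.6 CPM in SW480-B and at 17.2, 13.2 and 13.4 CPM in Bsg. Its libraries in both BASP1 lines lay above SW480, with log2 fold changes of 1.04 ± 0.26 (adjusted p = 0.0526) in Bsg and 0.98 ± 0.31 (adjusted p = 0.189) in SW480-B. IL10RB lay between 10.3 and 15.1 CPM, JAK1 between 111 and 141 CPM and TYK2 between 58.7 and 101 CPM.

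Of 15 genes that sense nucleic acids or relay that signal, 11 were tested and 2 rose in Bsg against SW480, beside 1.89% of all genes called higher. DHX58, a regulator of the RNA sensors RIG-I and MDA5, was at 0.0983, 0.486 and 0.398 CPM in SW480, at 0.807, 0.753 and 0.216 CPM in SW480-B and at 4.90, 6.00 and 5.73 CPM in Bsg. It rose by 4.04 ± 0.55 (log2, adjusted p = 0.0134) against SW480 and by 3.21 ± 0.47 (adjusted p = 0.00685) against SW480-B, and the call against SW480-B was kept without each library in turn. DHX58 passed the low-count filter through Bsg in both, since it reached the cutoff in 2 libraries each of SW480 and SW480-B. STING1, the adaptor of cytosolic DNA sensing, was at 4.85, 13.5 and 13.6 CPM in SW480, at 23.0, 31.5 and 26.8 CPM in SW480-B and at 42.0, 43.3 and 42.4 CPM in Bsg, with a rise of 1.97 ± 0.37 (adjusted p = 0.0290). IRF3, which IRF7 partners, lay between 90.8 and 151 CPM with all lines overlapping.

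Of 6 negative regulators none was called. Of 40 further interferon-stimulated genes, 28 were tested in Bsg against SW480 and 4 rose, beside 1.89% of all genes called higher: APOL2 by 1.81 ± 0.41 (log2, adjusted p = 0.0454), BATF2 by 1.68 ± 0.37 (adjusted p = 0.0410), HELZ2 by 1.19 ± 0.24 (adjusted p = 0.0350) and the antibody receptor TRIM21 by 1.11 ± 0.20 (adjusted p = 0.0260). None fell. In SW480-B the log2 fold changes of APOL2, BATF2, HELZ2 and TRIM21 were 1.15, 0.89, 0.84 and 0.97, none called. All SW480-B libraries lay above SW480 for each, as for 11.7% of all genes. The median log2 fold change of the genes tested was 0.72 in Bsg and 0.81 in SW480-B. None of the 29 tested in SW480-B was called, and 14 had an unadjusted edgeR p under 0.05, beside 2549 of all 16106 genes. Against SW480-B, 3 of 29 fell in Bsg, beside 4.37% of all genes called lower: GBP2 by 2.51 on the log2 scale (SE 0.63, adjusted p = 0.0455), the death ligand TNFSF10 by 2.74 (SE 0.58, adjusted p = 0.0243) and the retrovirus restriction factor TRIM5 by 1.18 (SE 0.25, adjusted p = 0.0243). GBP2 and TRIM5 were kept in 1 of 6 fits with a library left out and TNFSF10 in 3, all 3 were lost with Bsg replicates 2 and 3 summed, and GBP2 and TRIM5 also in the fit of all 9 libraries. GBP2 was at 1.15, 0.896 and 0.503 CPM in SW480-B and under 0.344 CPM, the cutoff of the low-count filter, in every Bsg library, so it was tested through SW480-B alone. The calls of DHX58, STING1, APOL2, BATF2, HELZ2 and TRIM21 against SW480 were all lost without SW480 replicate 2, without any 1 of the Bsg replicates and with Bsg replicates 2 and 3 summed.

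**Figure D5:**
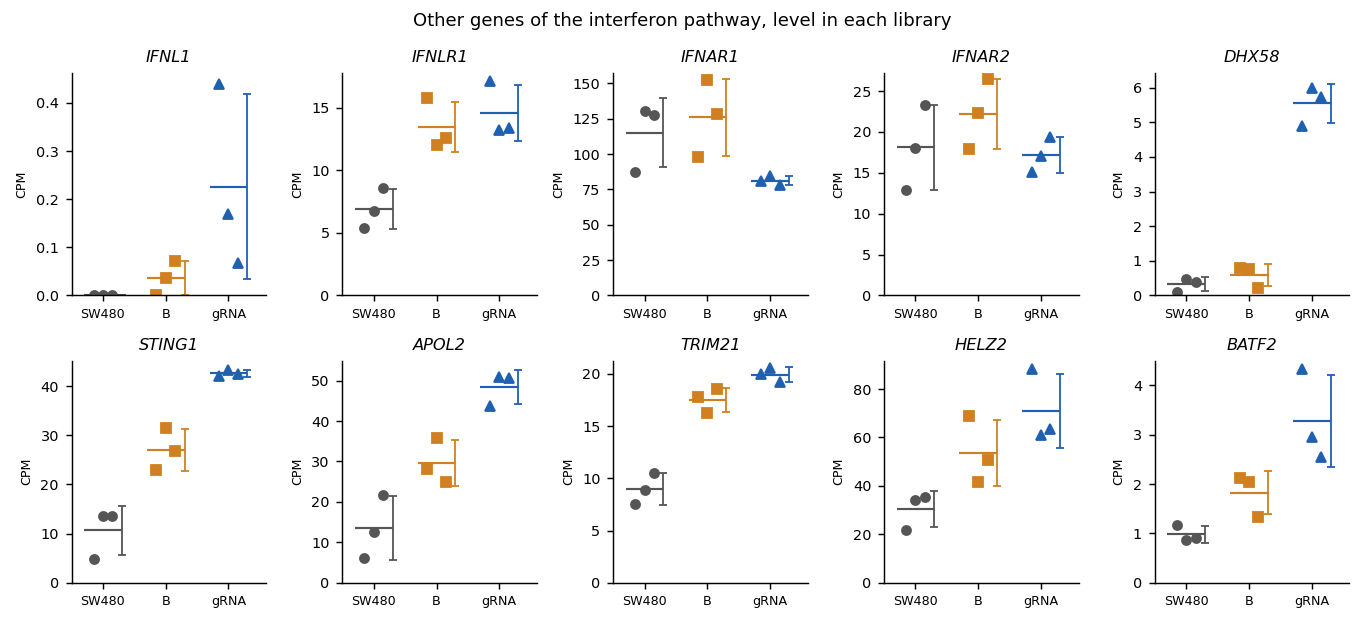
Level in each library (CPM, linear axis from 0) of 10 other genes of the pathway; B is SW480-B, gRNA is Bsg, horizontal lines are means and bars are the SD of 3 libraries. DHX58 is between 4.90 and 6.00 CPM in Bsg and under 1 CPM elsewhere. STING1, TRIM21, IFNLR1, APOL2, HELZ2 and BATF2 are higher than SW480 in the libraries of both BASP1 lines.

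Of 15 genes of MHC class I antigen presentation, all were tested and none was called against SW480 by the edgeR test used for the calls above, with a median log2 fold change of 1.07 in Bsg and 0.46 in SW480-B. The unadjusted p was under 0.05 for 8 in Bsg, beside 4572 of all 16100 genes, and for 2 in SW480-B, beside 2549 of 16106. HLA-B and PSMB8 were called higher in Bsg against SW480 under several alternatives, DESeq2 and the edgeR fit of all 9 libraries among them. Against SW480-B, where 2.31% of all genes were called higher, HLA-B rose by 1.44 ± 0.25 (log2, adjusted p = 0.0114) and the immunoproteasome subunit PSMB8 by 1.11 ± 0.22 (adjusted p = 0.0198) in Bsg. Both calls were lost in the fit of all 9 libraries (adjusted p = 0.118 and 0.142); with a library left out HLA-B was kept in 4 of 6 fits and PSMB8 in 2, and PSMB8 was lost with Bsg replicates 2 and 3 summed.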

How the data were processed

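Poly(A) RNA of the 9 libraries was sequenced as stranded pairs. The deposited files hold a count of reads per Ensembl gene as the authors made them (GRCh37; STAR, from a file header; counter not given in the sources used here) and base shares from Picard. Between 5.22% and 9.93% of reads fell in no gene and between 3.09% and 3.44% were ambiguous; these stayed out. Genes were named and placed with GENCODE; PECAM1 matched no identifier, and IKBKE, CCL5, TRIM34 and CD68 are not named in the results, because the table may hold them under other identifiers; their lists keep them at the listed counts. Each pair of lines was fitted over its 6 libraries with edgeR 4.0.16 in R 4.3.3 (TMM, filterByExpr, robust quasi-likelihood fit, Benjamini-Hochberg over all genes tested), after a test on simulated data. Deviations of libraries with the same replicate number correlated at 0.292, 0.322 and 0.395 between SW480-B and SW480. Libraries of different number were not compared, so whether these numbers mark pairs is not known. The main fits used no block, and fits with the replicate numbers as a block are given as an alternative. Genes named were members called in any comparison, the highest of each role, members at 0, fixed pathway genes, and some members near a call or beside a called one, chosen after the values were seen; members and lists were chosen with earlier results of these data known.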

Additional observations from a re-analysis of the deposited data

Results flagged for a closer look

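The change against SW480 differed between the BASP1 lines for 4 members, those called when Bsg was compared with SW480-B directly. Of the 38 members tested there, 5.26% were called higher and 5.26% lower, beside 2.31% and 4.37% of all genes. None of the 4 calls was kept without SW480-B replicate 2. MX2 had a log2 fold change of -2.46 in Bsg against SW480-B, with -1.77 against SW480 in Bsg and 0.73 ± 0.46 in SW480-B. OAS2 gave -1.68, with -0.71 ± 0.41 and 1.01 ± 0.38 against SW480. USP18 gave 2.31, with 1.24 ± 0.51 and -1.03 ± 0.55 against SW480. RTP4 gave 2.78, and was not tested in SW480-B against SW480. For MX2, OAS2 and USP18 the values against SW480 have opposite signs, and both rest on the same SW480 libraries.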

How the results depend on the processing

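Of the counts and medians of members, 84 values under alternatives stayed close to the main ones and 42 did not; no gene whose fold change is given here changed sign in any setting run. In Bsg against SW480 (5 higher, 2 lower), at least 1 CPM in 3 libraries gave 3 higher (OASL and RTP4 were not tested), a fit of all 9 libraries 8 higher, DESeq2 9 higher and 4 lower, glmTreat against 1.5-fold 1 higher and 1 lower, and summed replicates 2 and 3 0 higher and 0 lower. Leaving out 1 library gave from 0 to 7 higher, from 0 to 3 lower and a median from 0.51 to 0.94. In SW480-B against SW480 (0 and 0), RLE size factors, no filter, a fit of all 9 libraries and DESeq2 gave 1 lower each, as did the replicate block, and DESeq2 gave 2 higher. Leaving out 1 library gave from 0 to 1 higher and from 0 to 2 lower. In Bsg against SW480-B (2 and 2), no filter and DESeq2 gave 4 lower each, at least 1 CPM and glmTreat 1 higher each, the replicate block 4 higher, and summed replicates 1 higher and 1 lower. Leaving out 1 library gave from 0 to 2 higher and from 0 to 5 lower. The calls over all genes shifted too: in Bsg against SW480 they were 304 higher and 751 lower of 16100, 516 and 1064 of 16680 in the fit of all 9 libraries, 860 and 1520 of 29822 by DESeq2, 100 and 420 of 16100 by glmTreat and 20 and 77 of 16825 with summed replicates. In SW480-B against SW480 they went from 15 and 201 of 16106 to 92 and 360 of 16680 in the fit of all 9 libraries and 365 and 730 of 30000 by DESeq2, and in Bsg against SW480-B from 366 and 693 of 15846 to 556 and 1021 of 28815 by DESeq2, but to 181 and 473 of 16680 in the fit of all 9 libraries, 177 and 401 by glmTreat and 141 and 305 of 16335 with summed replicates. The cause of these shifts was not tested.

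For Bsg, deviations of the same replicate number correlated at 0.292, -0.0373 and 0.267 with SW480, and at 0.236, -0.0870 and 0.242 with SW480-B. Bsg replicates 2 and 3 were nearly alike, so these values cannot show whether their numbers pair. With the replicate block, Bsg against SW480 again gave 5 higher and 2 lower, with OAS1 and OASL replaced by IFI35 and UBE2L6; all genes gave 341 and 858 of 16100, and HLA-B and PSMB8 were called higher. Against SW480-B the block added BST2, OASL and IFI27, with 504 and 885 of all 15846 genes. Members that reached 0.343 CPM in fewer than 3 libraries were not tested.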
